A study of Mus musculus with 6 samples.

Results

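Cajal-Retzius cells are early-born neurons at the surface of the developing cortex, and reelin is the large glycoprotein that they secrete. The mRNA levels of 10 genes were examined in fetal mouse cortex: Reln, which encodes reelin; Vldlr and Lrp8, which encode its receptors; Dab1, which encodes the adaptor inside the receiving neuron; and Trp73, Lhx1, Lhx5, Calb2, Ebf2 and Ebf3, which serve as markers of Cajal-Retzius cells. The genes were chosen by name, with earlier results of these data known, and each matched 1 row of a count table of 45583 rows. Bulk RNA-seq gave 1 library for each of 6 fetuses. All were male (SRY +), of the Cyp19-EGFP strain, in which a transgene carries the aromatase gene Cyp19a1 with EGFP inserted; their labelled genotype was WT, and cortex was taken at GD15.5 (GD, gestational day) per the labels and the study's methods. Another passage of the study gives a later age. The 3 vehicle fetuses came from dams injected subcutaneously with vehicle, peanut oil per the labels and ethanol in peanut oil per the study's supplement. The 3 BPA fetuses came from dams injected in the same way with bisphenol A at 50 µg/kg a day. Per the study's methods, the bisphenol A was given in ethanol and peanut oil. Both groups of dams were injected daily from GD10.5 to GD14.5. Bisphenol A is used to make plastics and has estrogenic activity. The labels do not say which fetuses shared a dam, so p-values measure only the spread between these fetuses.

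Reelin binds Vldlr and Lrp8 (also called apolipoprotein E receptor 2) on migrating neurons, and kinases of the Src family then phosphorylate Dab1. Loss of Reln, of Dab1 or of both receptors together disturbs the layering of the cortex. Cajal-Retzius cells arise from the cortical hem, the septum, the ventral pallium and other borders of the pallium, and these sources differ in the transcription factors that they express. In bulk cortex, fewer cells of a type and less RNA per cell cannot be told apart, and interneurons also make Reln and Calb2.

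Total counts were 5030652 to 7180835 in the vehicle libraries and 3444601 to 6426857 in the BPA libraries. Expression is given as CPM, the count of a gene relative to the scaled library total, and 13741 genes passed the filter on low counts. BPA 3 had the lowest total count, 3444601, and the highest CPM of Reln, Dab1, Vldlr, Trp73 and Lhx1. The part of sequencing depth in these values was not tested. Genes expressed in pallial neurons were abundant. Bcl11b, a factor of deep-layer neurons, stood at 702 ± 69.3 CPM in vehicle (SD, n = 3). Neurod6, a factor of projection neurons, stood at 738 ± 106 CPM. The libraries vehicle 2 and BPA 2 stood apart by Ttr, the transthyretin gene of the choroid plexus, at 195 and 308 CPM against 2.21 to 11.9 CPM in the other 4. Cyp19a1 had 0 to 3 counts in each library and was not tested.

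None of the 10 genes differed between BPA and vehicle at the adjusted p threshold of 0.1 (edgeR's quasi-likelihood test, Benjamini-Hochberg adjustment over all genes tested; adjusted p = 0.9998 for each). Over all 13741 genes the share called was 0%, with a smallest adjusted p of 0.251. All 10 genes passed the filter on low counts, with 14 to 3558 counts per library. On the log2 scale 8 had a higher fitted value in BPA and 2 a lower one, beside 50.5% higher over all genes tested. The median log2 fold change of the 10 was 0.12 against 0.0016 in the whole table. These values and the shares below describe genes chosen with earlier results of these data known. Ebf3 alone stood at an unadjusted p under 0.05, 1 of the 10, where the share over all genes was 2.2%, with 1.02% higher in BPA. The groups did not overlap for 2 of the 10, Trp73 and Ebf3, both higher in BPA, against 6.75% of all genes in either direction and 3.19% higher in BPA. Without vehicle 2 and BPA 2, 3 of the 10 (Trp73, Calb2 and Ebf3) stood at that p, beside 954 of 13643 genes (6.99%), and the groups did not overlap for 5, beside 35.2% of all genes in this comparison of 2 libraries with 2.

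**Figure D1:**
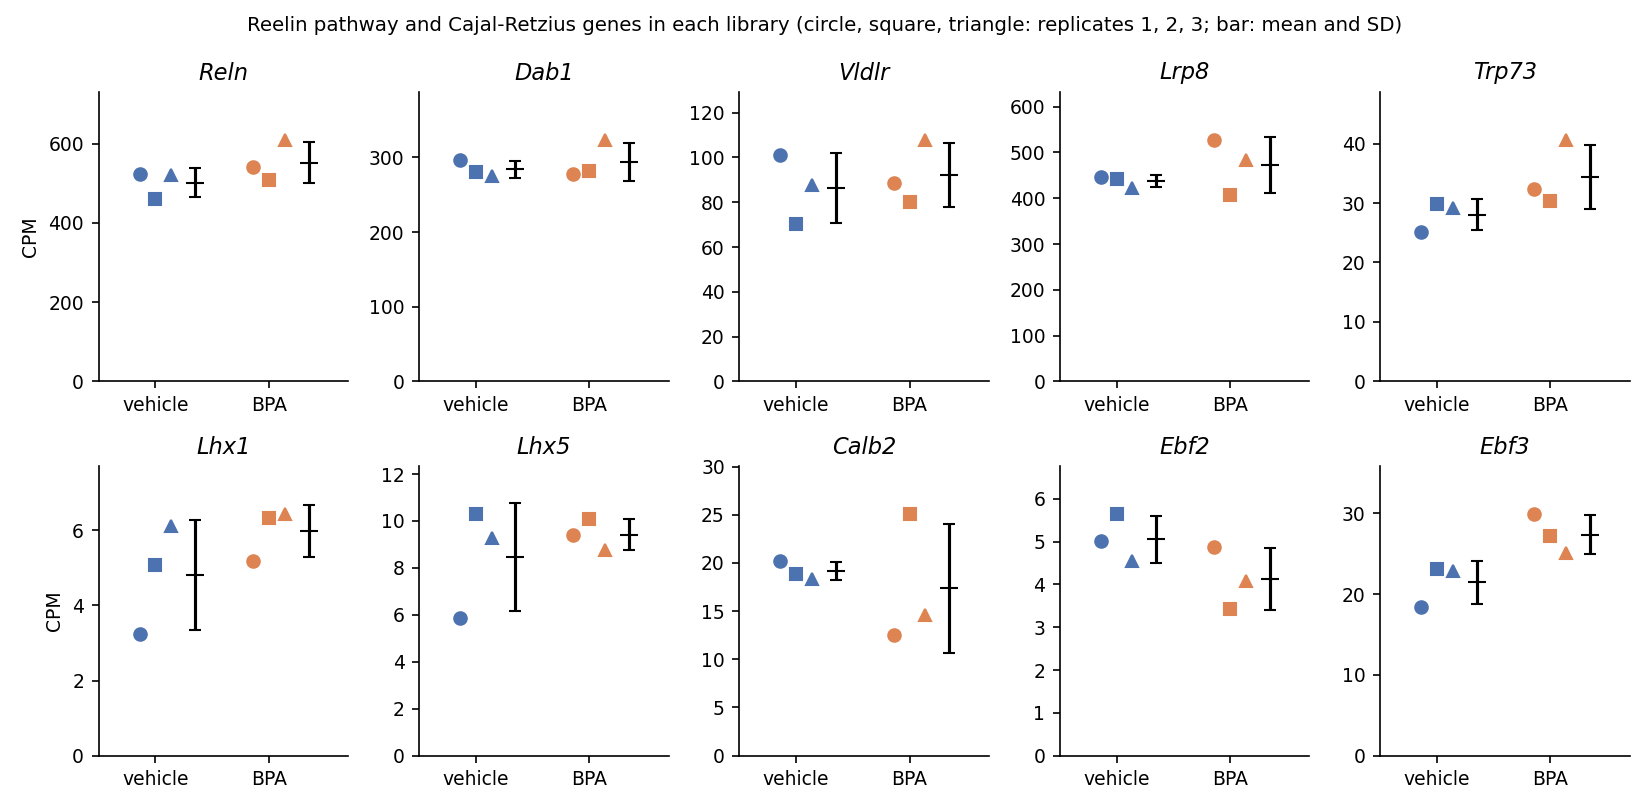
CPM (vertical axes, from 0) of the 10 genes in the 3 vehicle (blue) and 3 BPA (orange) libraries; circle, square and triangle are replicates 1, 2 and 3, and the bars are the mean and SD. Equal replicate numbers do not pair libraries between the groups. Only for Trp73 and Ebf3 do all 3 BPA points lie above all 3 vehicle points, and for Calb2 the BPA points lie on both sides of the vehicle points.

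Per length the 10 genes spanned a wide range of levels. Lrp8 had the highest mean level, with 41.6 ± 1.19 CPM per kilobase of merged exons in vehicle (SD, n = 3), and Ebf2 the lowest, with 0.730 ± 0.0794 CPM per kilobase. The level of Dab1 was 35.9 ± 1.43 CPM per kilobase, and its range over the 6 libraries overlapped that of Lrp8. Reln followed at 21.1 ± 1.52 CPM per kilobase, separate from Dab1 above it and from Calb2 below it in every library. Below Reln, the level of Calb2 was 11.0 ± 0.534 CPM per kilobase, that of Vldlr 8.58 ± 1.54 and that of Trp73 5.07 ± 0.459. The ranges of Calb2 and Vldlr overlapped, as did those of Vldlr and Trp73. The remaining factors were lower, with vehicle levels per kilobase of 3.15 ± 0.856 CPM for Lhx5, 2.32 ± 0.288 CPM for Ebf3 and 1.18 ± 0.358 CPM for Lhx1. The ranges of Lhx5 and Ebf3 overlapped, and so did those of Lhx1 and Ebf2, whereas Ebf3 lay above Lhx1 in every library. The receptors and the adaptor of the receiving neurons therefore included the 2 highest levels, and the factors Lhx5, Ebf3, Lhx1 and Ebf2 the lowest.

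**Figure D2:**
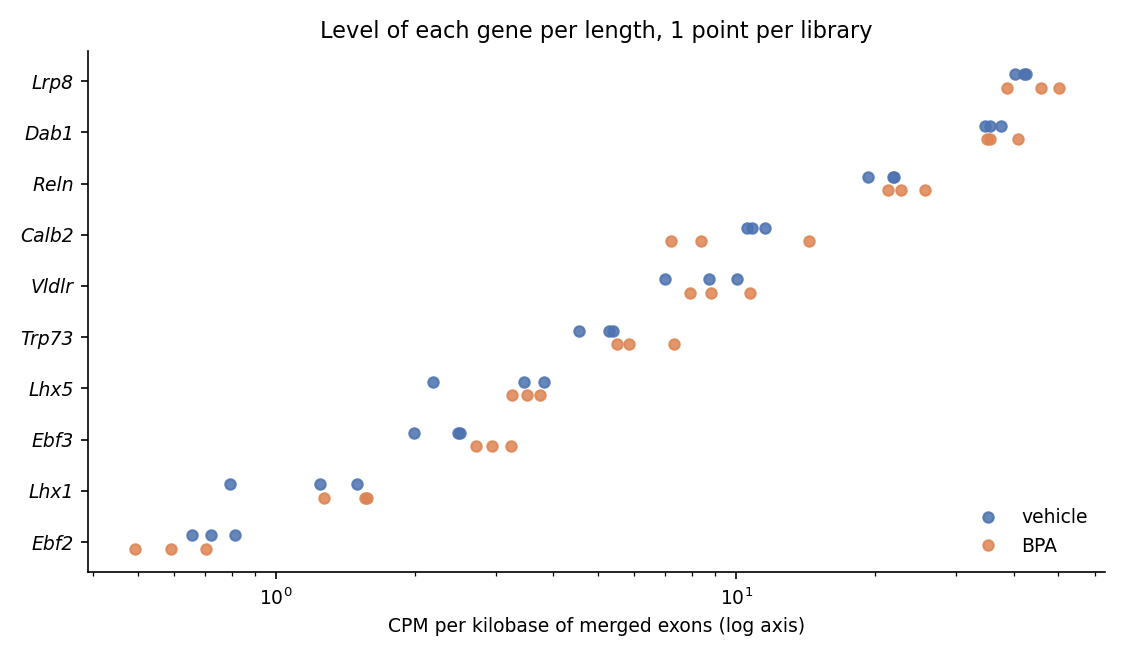
Level of each gene in CPM per kilobase of merged exons (horizontal log axis), 1 point per library, vehicle in blue and BPA in orange. Genes are ordered by mean level from Lrp8 at the top to Ebf2 at the bottom, and the points of the groups overlap for 8 of the 10 genes, all but Trp73 and Ebf3.

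Reln lies on chromosome 5 (GRCm38, chr5:21884454-22344702, minus strand). Its values were 523, 459 and 521 CPM in vehicle 1 to 3 and 540, 508 and 608 CPM in BPA 1 to 3. The groups overlapped, since BPA 2 lay below vehicle 1 and vehicle 3, and the lowest value was that of vehicle 2. The log2 fold change was 0.14 (SE 0.099), and the 95% interval of the fold ran from 0.952 to 1.27. Leaving out each library in turn gave log2 fold changes from 0.064 (without BPA 3) to 0.19 (without BPA 2), with 0.082 without vehicle 2.

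RefSeq gives 250 bases before a transcription start for 7 of the 10 genes (GRCm38.p6); Lhx5, Calb2 and Ebf2 have no entry in the table used. The windows of Reln, Ebf3 and Trp73 are given here for the ligand and for the 2 factors whose groups did not overlap. They are written 5′ to 3′ on the strand of the gene and end 1 base before the start. Capitals mark the GC box GGGCGG on either strand, the core of the Sp1 family's site, and CCCNNGGG, the core of the site of the early B-cell factors that the Ebf genes encode. Reln (chr5:22344706-22344955, minus strand) had 80.0% G and C, 37 CG dinucleotides, 6 GC boxes and 2 copies of CCCNNGGG, of which the one starting 116 bases before the start overlaps a GC box. Ebf3 (chr7:137314446-137314695, minus strand) also had 80.0% G and C, with 43 CG dinucleotides, 3 GC boxes and 1 copy of CCCNNGGG, 21 bases before the start. For Trp73, the start inside the gene is shown (chr4:154097174-154097423, minus strand), which gives the p73 forms with a shorter N terminus. The window had 58.4% G and C, 6 CG dinucleotides and 1 GC box. Exons of the antisense gene Trp73os overlap 280 bases of the exons of Trp73.
Reln: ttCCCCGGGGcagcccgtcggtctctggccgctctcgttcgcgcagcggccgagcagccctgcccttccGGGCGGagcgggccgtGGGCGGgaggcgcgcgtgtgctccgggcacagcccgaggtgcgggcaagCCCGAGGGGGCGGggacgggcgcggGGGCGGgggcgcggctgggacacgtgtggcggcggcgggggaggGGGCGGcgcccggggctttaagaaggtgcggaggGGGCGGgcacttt
Ebf3: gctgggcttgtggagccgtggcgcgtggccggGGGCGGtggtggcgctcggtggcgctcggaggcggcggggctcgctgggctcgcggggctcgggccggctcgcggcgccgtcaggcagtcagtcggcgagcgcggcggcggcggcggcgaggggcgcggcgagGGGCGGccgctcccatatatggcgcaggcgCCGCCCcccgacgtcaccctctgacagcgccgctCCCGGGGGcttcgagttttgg
Trp73: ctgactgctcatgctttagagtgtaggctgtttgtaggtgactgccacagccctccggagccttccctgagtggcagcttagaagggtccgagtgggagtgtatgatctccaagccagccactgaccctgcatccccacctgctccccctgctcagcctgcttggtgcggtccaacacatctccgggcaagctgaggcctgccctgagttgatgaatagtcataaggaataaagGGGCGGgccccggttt

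Among all 32851 windows of this length in the table, 32.7% held a GC box and 11.8% held CCCNNGGG, and the median window had 52.4% G and C and 6 CG dinucleotides. The second Trp73 window, at the far start of the gene, had 77.2% G and C and 31 CG dinucleotides. TATAAA, the TATA box, stood in none of the 12 windows of the 7 genes and in 12.4% of all windows. These letters describe the windows and do not show that a factor was bound.

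The receptor Lrp8 (chr4:107802261-107876840, plus strand) had 447, 442 and 423 CPM in vehicle 1 to 3 and 527, 407 and 483 CPM in BPA 1 to 3. BPA 1 and BPA 3 lay above every vehicle library and BPA 2 below every one. BPA over vehicle, the log2 fold change was 0.11 (SE 0.10, 95% interval of the fold 0.928 to 1.25). Leaving out BPA 2 gave 0.21 and leaving out BPA 1 gave 0.023.

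Vldlr (chr19:27216484-27254231, plus strand), the other receptor, had 101, 70.2 and 87.8 CPM in vehicle 1 to 3 and 88.7, 80.0 and 108 CPM in BPA 1 to 3. The groups overlapped, and vehicle 2 was the lowest library, as it was for Reln. Its log2 fold change was 0.085 (SE 0.14, 95% interval of the fold 0.862 to 1.30), and the sign turned when vehicle 2 or BPA 3 was left out. Within a library, the log2 ratio of Vldlr to Lrp8 counts averaged -2.35 ± 0.27 in vehicle and -2.36 ± 0.20 in BPA (SD, n = 3 each), and the groups overlapped.

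Dab1 (chr4:103619359-104744844, plus strand) had 296, 281 and 275 CPM in vehicle 1 to 3 and 277, 282 and 323 CPM in BPA 1 to 3. Only BPA 3 lay outside the range of the vehicle libraries. With a log2 fold change of 0.048 (SE 0.095), Dab1 had the narrowest 95% interval of the 10, from 0.899-fold to 1.19-fold, and the value was -0.023 without BPA 3. The log2 ratio of Reln to Dab1, the ligand to the adaptor, was 0.82 ± 0.11 in vehicle and 0.91 ± 0.056 in BPA, and the groups overlapped.

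Trp73 (chr4:154056253-154140208, minus strand) encodes p73, a p53 relative on which Cajal-Retzius cells from the hem and septum depend. Its values were 25.2, 29.8 and 29.2 CPM in vehicle 1 to 3 and 32.3, 30.4 and 40.6 CPM in BPA 1 to 3. Every BPA library lay above every vehicle library, with BPA 2 just above vehicle 2 and BPA 3 farthest away. The log2 fold change was 0.28 (SE 0.14, 95% interval of the fold 0.986 to 1.49). Without BPA 3 it was 0.16, and without vehicle 2 and BPA 2 it was 0.42 and stood at an unadjusted p under 0.05 (adjusted p = 0.615 by edgeR).

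Ebf3 (chr7:137193673-137314445, minus strand), an early B-cell factor present in Cajal-Retzius cells, had 18.4, 23.1 and 22.9 CPM in vehicle 1 to 3 and 29.8, 27.1 and 25.1 CPM in BPA 1 to 3. The groups did not overlap, and vehicle 1 was the lowest library by a wide gap. Its log2 fold change was 0.36 (SE 0.14, 95% interval of the fold 1.04 to 1.59), which ranked 98 by p among the 13741 genes. The unadjusted p was no longer under 0.05 when vehicle 1 (log2 fold change 0.26) or BPA 1 (0.29) was left out.

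Ebf2 (chr14:67233292-67430918, plus strand), a second gene of this family, stood in the other direction. It had 5.0, 5.63 and 4.54 CPM in vehicle 1 to 3 and 4.87, 3.41 and 4.08 CPM in BPA 1 to 3. BPA 1 lay inside the vehicle range and the other BPA libraries below it. The log2 fold change was -0.30 (SE 0.26, 95% interval of the fold 0.556 to 1.19). It was -0.46 without BPA 1, -0.16 without BPA 2 and -0.064 without vehicle 2 and BPA 2. The log2 ratio of Ebf2 to Ebf3 counts within a library was -2.06 ± 0.23 in vehicle and -2.71 ± 0.22 in BPA (SD, n = 3 each), a difference of -0.65, and the groups did not overlap. Counts of Ebf2 were small, down to 14 in a library, and no test of this ratio was made. The ratio also holds the values of Ebf3, whose groups did not overlap by themselves. For the other ratios given here the groups overlapped, and no share of such ratios without overlap was computed over all genes.

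The LIM factors Lhx1 and Lhx5 are expressed where Cajal-Retzius cells form and in the cells themselves. Lhx5 (chr5:120431699-120441223, plus strand) had 5.88, 10.3 and 9.27 CPM in vehicle 1 to 3 and 9.42, 10.1 and 8.75 CPM in BPA 1 to 3, so that the BPA libraries lay within the vehicle range. Its log2 fold change was 0.17 (SE 0.23, 95% interval of the fold 0.804 to 1.57) and turned to -0.049 without vehicle 1. Lhx1 (chr11:84518284-84525535, minus strand) had 3.24, 5.07 and 6.11 CPM in vehicle 1 to 3 and 5.18, 6.34 and 6.42 CPM in BPA 1 to 3. Here too vehicle 1 was the lowest library, and the groups overlapped. Its log2 fold change was 0.32 (SE 0.27), with the widest interval of the 10, from 0.841-fold to 1.86-fold. Without vehicle 1 it was 0.096 and without vehicle 3 it was 0.51. The log2 ratio of Lhx1 to Lhx5 was -0.82 ± 0.21 in vehicle and -0.65 ± 0.21 in BPA, and the groups overlapped.

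Calb2 (chr8:110137502-110168210, minus strand) encodes calretinin, a calcium-binding protein of Cajal-Retzius cells and of some interneurons. Its values were 20.1, 18.9 and 18.3 CPM in vehicle 1 to 3 and 12.6, 25.0 and 14.6 CPM in BPA 1 to 3. BPA 1 and BPA 3 lay below every vehicle library and BPA 2 above every one. Over the 6 libraries the log2 fold change was -0.12 (SE 0.21, 95% interval of the fold 0.674 to 1.26). Without BPA 2 it was -0.52, at an unadjusted p under 0.05 (adjusted p = 0.995 by edgeR), and without BPA 1 it was 0.095. BPA 2 was also the library with the highest Ttr, and the part of choroid plexus tissue in the Calb2 value was not tested.

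The 95% intervals of 9 of the 10 genes spanned no difference, and those of 6 lay wholly within a 1.5-fold difference in either direction. On the log2 scale the intervals reached 0.20 to 0.57 to each side of the estimate. The intervals within 1.5-fold were those of Reln, Dab1, Vldlr, Lrp8, Trp73 and Calb2, whereas those of Lhx1, Lhx5, Ebf2 and Ebf3 reached past it.

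**Figure D3:**
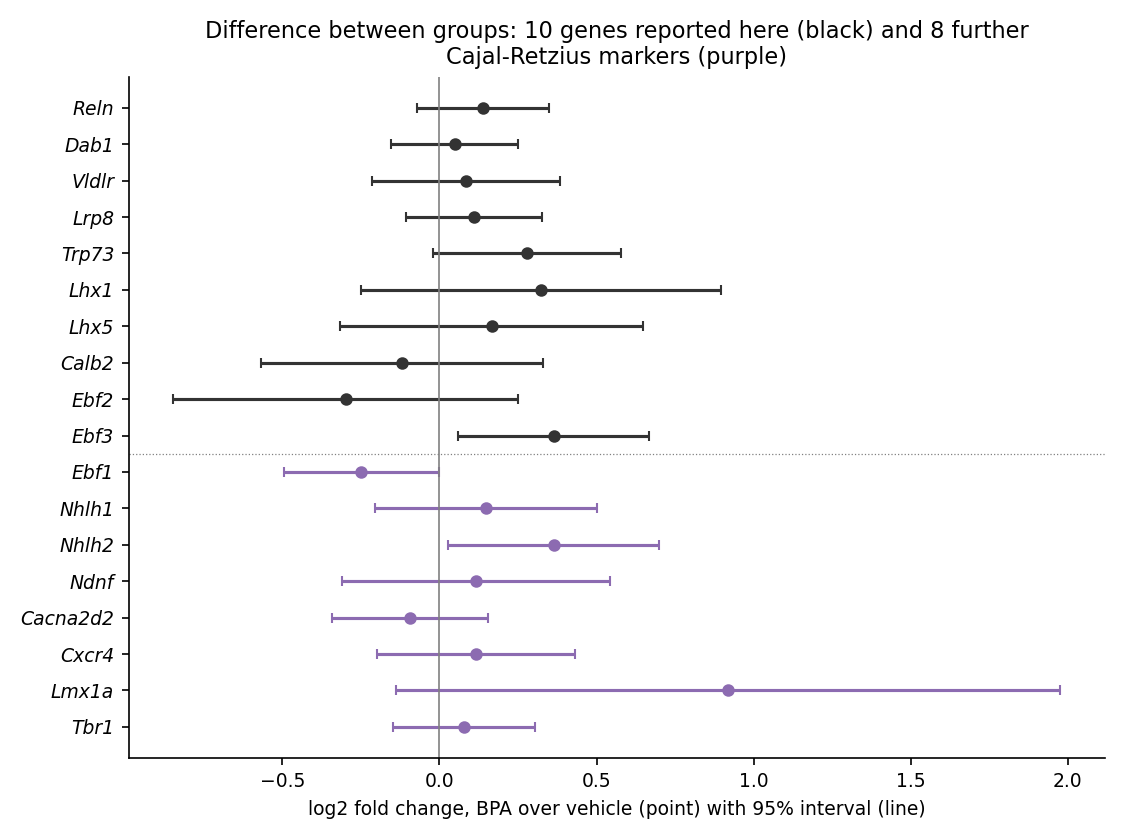
Log2 fold change of BPA over vehicle (points) with its 95% interval (lines) for the 10 genes (black) and 8 further Cajal-Retzius markers (purple). Among the 10 genes only the interval of Ebf3 lies wholly to one side of 0; Lmx1a, the least abundant of the further markers, has the widest interval.

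A further 8 genes known from Cajal-Retzius cells or their lineage were described beside the 10, and none was called. Of the 8 markers, 6 were higher in BPA and 2 lower (median log2 fold change 0.12), and 2 stood at an unadjusted p under 0.05, 1 in each direction (1.02% of all genes higher and 1.18% lower). Nhlh2, a neuronal helix-loop-helix factor, had 23.4, 37.7 and 31.0 CPM in vehicle 1 to 3 and 35.8, 41.3 and 42.0 CPM in BPA 1 to 3 (log2 fold change 0.36, SE 0.16). Its groups overlapped through vehicle 2, and vehicle 1 was again the lowest library. Ebf1, which had a higher CPM than Ebf2 and Ebf3 in every library, had 90.3, 114 and 89.5 CPM in vehicle 1 to 3 and 81.8, 85.2 and 80.5 CPM in BPA 1 to 3 (log2 fold change -0.25, SE 0.12). All 3 BPA values of Ebf1 lay below the vehicle values, as in 3.56% of all genes tested. Ebf1 is also expressed in the striatum and in vessel walls. Lmx1a, a factor of the hem, had 0.441 to 3.80 CPM in vehicle and 2.83 to 5.04 CPM in BPA (log2 fold change 0.92, SE 0.50), and its groups overlapped. It is counted again in the cortical hem list below. Tbr1, at 589 ± 76.8 CPM in vehicle and 621 ± 50.7 CPM in BPA (log2 fold change 0.077), is counted again among the pallial projection neuron and progenitor genes.

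For the reelin relay, 30 genes of kinases, adaptors and effectors were tested, among them the Src family kinases that act on Dab1. None stood at an unadjusted p under 0.05 or was called. In this list 12 genes had higher and 18 lower values in BPA, and log2 fold changes ran from -0.26 to 0.17 with a median of -0.012. The smallest p belonged to Cdk5r2, an activator of the kinase Cdk5, at 45.3 ± 4.84 CPM in vehicle and 37.9 ± 6.24 CPM in BPA (log2 fold change -0.26, SE 0.14). Yes1, a kinase of the Src family, had 25.9 to 27.1 CPM in vehicle and 28.6 to 31.5 CPM in BPA (log2 fold change 0.17). It was the only gene of the 30 whose groups did not overlap, beside 6.75% of all genes tested. Nckap1, a subunit of the complex that drives actin branching, stood at 198 ± 6.55 and 215 ± 19.6 CPM (log2 fold change 0.12).

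Of 17 genes for the cleavage of reelin, the handling of its receptors and the turnover of Dab1, 15 were tested. Mesd, a chaperone of the receptors, was not analysed here. In this list 9 genes had higher and 6 lower values in BPA (median log2 fold change 0.058). At an unadjusted p under 0.05 stood 2 genes, both lower, with groups that did not overlap. Over all genes tested, 1.18% were lower at that p and 3.56% were lower without overlap. Serpine2, a serine protease inhibitor, had 26.3, 26.3 and 27.6 CPM in vehicle 1 to 3 and 17.9, 25.7 and 19.3 CPM in BPA 1 to 3 (log2 fold change -0.34, SE 0.15). BPA 2 lay next to the vehicle libraries and the other BPA libraries well below them. Adamts5, one of the metalloproteases of the family that cleaves reelin, had 9.41, 7.74 and 6.71 CPM in vehicle 1 to 3 and 5.65, 5.53 and 6.13 CPM in BPA 1 to 3 (log2 fold change -0.48, SE 0.22). Mylip, a ubiquitin ligase that removes both receptors, had 9.07 to 11.8 CPM in vehicle and 7.0 to 9.59 CPM in BPA (log2 fold change -0.28).

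Of 9 other ligands and partners of the receptors, 3 had higher and 6 lower values in BPA (median log2 fold change -0.0090), with none at an unadjusted p under 0.05 and overlapping groups throughout. Spon1, a secreted matrix protein that binds Lrp8, stood at 28.5 ± 5.28 CPM in vehicle and 23.4 ± 5.48 CPM in BPA (log2 fold change -0.32, SE 0.17). Efnb3, an ephrin B, had a log2 fold change of -0.12 and Apoe, the apolipoprotein E gene, one of 0.11. Over the 4 lists together, 62 of 64 genes were tested, 30 were higher and 32 lower, and 4 stood at an unadjusted p under 0.05 (6.45%) and 4 had groups that did not overlap (6.45%), against 2.2% and 6.75% of all genes tested.

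**Figure D4:**
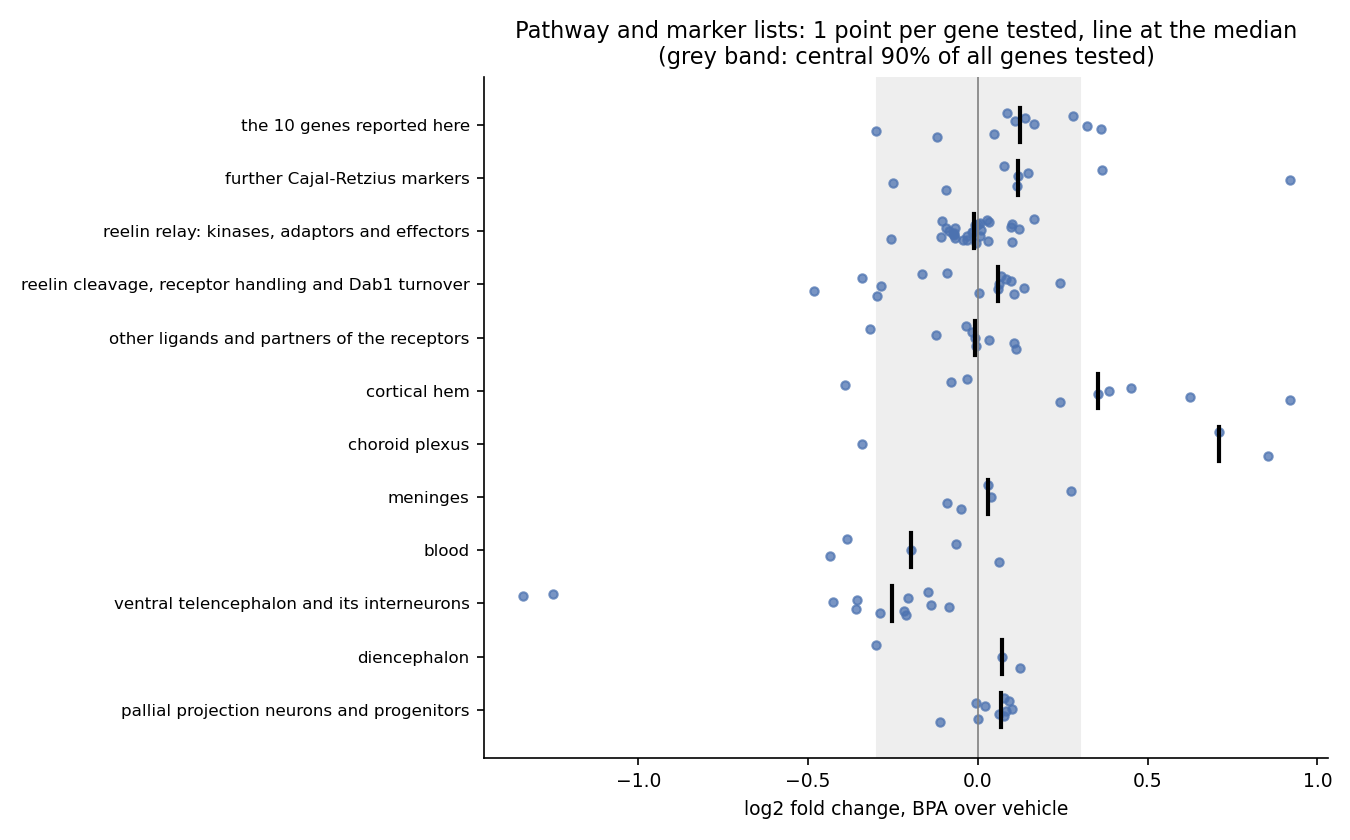
Log2 fold change of BPA over vehicle (horizontal axis) for each gene tested, by list; black lines are list medians and the grey band holds the central 90% of all genes tested, from -0.30 to 0.30. The relay genes lie within the band, and all 12 ventral telencephalic genes lie left of 0.

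Markers of neighboring tissue were read beside these values, and the sums given for a list cover all its genes in the table, tested or not. For the cortical hem, a source of Cajal-Retzius cells, 9 of 10 genes were tested, 6 higher and 3 lower in BPA (median log2 fold change 0.35), and the summed level ran from 74.7 to 96.8 CPM in vehicle and from 91.2 to 109 CPM in BPA. Rspo3, a secreted enhancer of Wnt signaling, had 22.4, 19.4 and 22.1 CPM in vehicle 1 to 3 and 29.2, 28.9 and 24.5 CPM in BPA 1 to 3 (log2 fold change 0.39, SE 0.14). Its groups did not overlap, as for Trp73 and Ebf3, beside 3.19% of all genes tested that were higher without overlap. Wnt5a had 26.7 ± 2.92 and 25.5 ± 3.48 CPM (log2 fold change -0.080). The part of the amount of hem tissue in the values of Trp73 and Ebf3 was not tested.

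All 12 genes of the ventral telencephalon and its interneurons had lower values in BPA (median log2 fold change -0.25). Of the 12, 5 stood at an unadjusted p under 0.05 and 8 had groups that did not overlap. Over all genes tested, 50.5% were higher in BPA, 1.18% were lower at that p and 3.56% were lower without overlap. This list was chosen with earlier results of these data known. The sum of the 12 ran from 1136 to 1271 CPM in vehicle and from 991 to 1081 CPM in BPA. Nkx2-1, the factor that defines the medial ganglionic eminence, had 42.8, 39.0 and 26.0 CPM in vehicle 1 to 3 and at most 21.0 CPM in a BPA library (log2 fold change -1.25, SE 0.22, adjusted p = 0.251 by edgeR). Lhx8, a LIM factor of the same domain, stood at 14.4 ± 5.18 and 5.68 ± 2.81 CPM (log2 fold change -1.34). The interneuron genes Dlx1 (log2 fold change -0.21) and Gad2 (-0.14) were the most abundant of the list. The part of interneurons in the values of Reln and Calb2 was not tested.

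For the choroid plexus 3 of 8 genes passed the filter and were tested, and the sum of all 8 ran from 12.6 to 232 CPM in vehicle and from 14.6 to 369 CPM in BPA, high in vehicle 2 and BPA 2 alone. Log2 fold changes were 0.71 for Ttr, 0.86 for Clic6, a chloride channel protein, and -0.34 for Otx2, a homeobox factor. For the meninges 5 of 8 genes were tested, 3 higher and 2 lower, with sums of 39.1 to 108 CPM in vehicle and 49.6 to 83.2 CPM in BPA. The most abundant, the chemokine gene Cxcl12, which guides Cajal-Retzius cells along the pial surface, stood at 33.5 ± 8.24 and 34.0 ± 2.68 CPM (log2 fold change 0.039). The collagen gene Col1a2 (log2 fold change -0.091) and the proteoglycan gene Dcn (0.28) were highest in vehicle 3 and BPA 2. For blood, 5 of 7 genes were tested and 1 was higher and 4 lower, with sums of 277 to 594 CPM and 327 to 410 CPM. The hemoglobin genes led this list, with log2 fold changes of -0.43 for Hba-a1, at an unadjusted p under 0.05, and -0.20 for Hbb-bs.

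For the diencephalon 3 of 8 genes were tested, with sums of 38.4 to 52.5 CPM in vehicle and 38.8 to 47.3 CPM in BPA; Tcf7l2, a thalamic factor, had a log2 fold change of -0.30 and Lhx9 one of 0.12. Of 10 pallial projection neuron and progenitor genes 8 had higher values in BPA and none stood at an unadjusted p under 0.05 (median log2 fold change 0.069), with sums of 3547 to 4050 CPM in vehicle and 3715 to 4040 CPM in BPA. Bcl11b had a log2 fold change of -0.11 and Neurod6 one of 0.10.

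**Figure D5:**
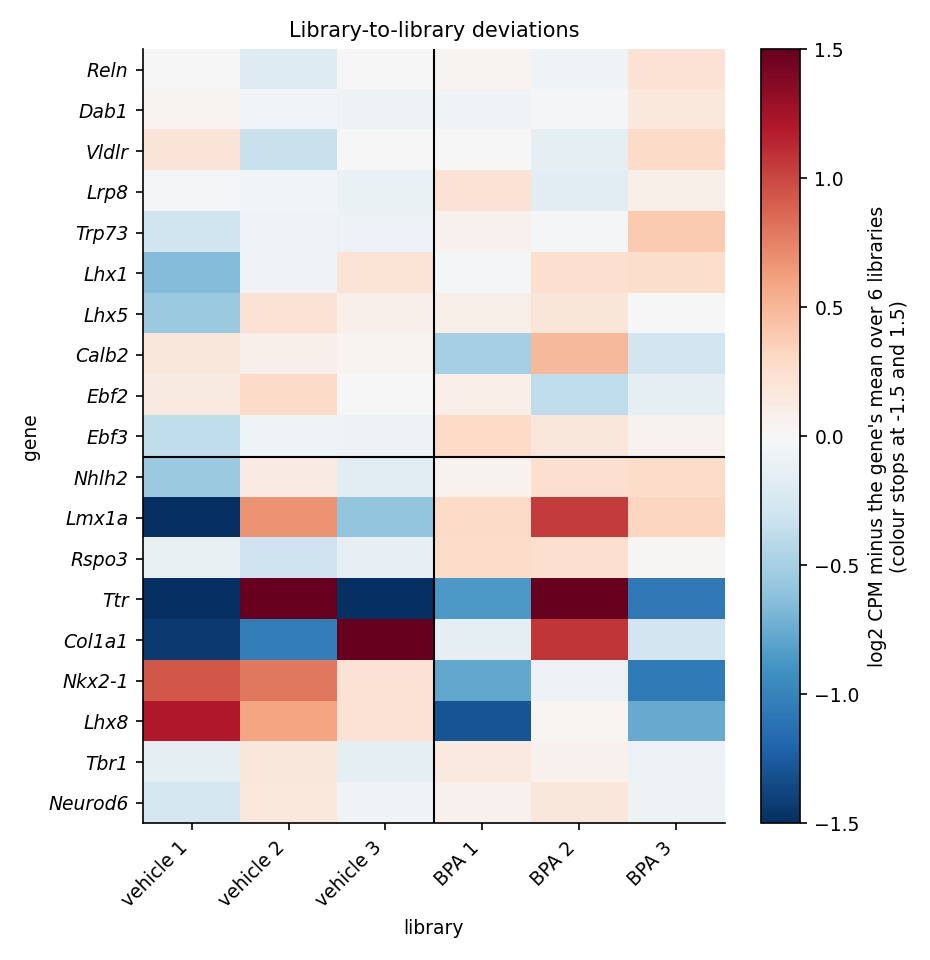
Deviation of each library's log2 CPM from the gene's mean over the 6 libraries (color) for the 10 genes above the line and selected genes of neighboring tissue below it. Ttr is high in vehicle 2 and BPA 2, and Nkx2-1 and Lhx8 are higher in every vehicle library than in any BPA library.

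Whether the other 9 genes varied with Reln from library to library was asked by correlation of log2 CPM over the 6 libraries, which share the scaling and the 2 groups. None of the 9 relations passed after Benjamini-Hochberg adjustment (exact two-sided permutation test over 720 orderings). The highest value was that of Vldlr, with Pearson r = 0.89 (exact permutation p = 0.0236, adjusted p = 0.212) and Spearman rho = 0.94 (exact permutation p = 0.0167, adjusted p = 0.150). After centering each group on its mean, r for Vldlr was 0.95. Without BPA 3 and vehicle 2, the libraries farthest from the median of Reln, r for Vldlr was 0.43 over the 4 libraries left, which span a narrower range of Reln, so the high value rests in part on those 2 libraries.

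The other genes with r above 0.5 were Dab1 with r = 0.73 (rho 0.37; exact permutation p = 0.154 and p = 0.497, both adjusted p at or above 0.463) and Trp73 with r = 0.67 (rho 0.49; exact permutation p = 0.117 and p = 0.356). Without BPA 3 and vehicle 2, r was -0.14 for Dab1 and 0.25 for Trp73. The remaining Pearson values were 0.50 for Lrp8, 0.24 for Lhx1, 0.20 for Ebf3, -0.25 for Lhx5, -0.42 for Ebf2 and -0.53 for Calb2, with exact permutation p from 0.253 to 0.763. Their Spearman values ran from -0.71 for Lhx5 to 0.77 for Lrp8. Without the same 2 libraries r was 0.96 for Lrp8, -0.97 for Calb2 and 0.80 for Ebf2, each over the 4 libraries left.

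By Pearson r of log2 CPM over the 6 libraries, 10009 genes with a mean of at least 10 CPM were ranked against Reln, as a description. Among the nearest were Sepsecs, an enzyme of selenocysteine synthesis (r = 0.99), Pggt1b, a subunit of a prenyl transferase (r = 0.98), Ppp1r26, a regulatory subunit of a phosphatase (r = 0.98), and Ivns1abp, an actin-binding protein (r = 0.97). Sepsecs had 25.9, 21.7 and 25.0 CPM in vehicle 1 to 3 and 26.5, 24.2 and 31.8 CPM in BPA 1 to 3, lowest in vehicle 2 and highest in BPA 3 like Reln. Vldlr ranked 130 in this order, Dab1 728 and Trp73 1043.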

How the data were processed

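Fetal cortex RNA was made into strand-specific libraries and read as 50-base single ends. Per the study's methods and the submitters' processing notes, the authors aligned reads to GRCm38 with TopHat2 2.0.14 and deposited 1 table of raw counts per gene for the 6 libraries; StringTie 1.2.4 and edgeR are named too. The strand and multimapping settings are not given in the sources used here. Of 45583 rows, 23501 had at least 1 count. Antisense genes overlapping Reln, Trp73, Lhx5 and Ebf2 had at most 2 counts per library. Gm45278, antisense to Ebf3, was not analysed here.

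Counts were tested with edgeR 4.0.16 (TMM scaling, filterByExpr with a minimum count of 10 and a minimum total of 15, quasi-likelihood test, two-sided, Benjamini-Hochberg, threshold 0.1, no covariate). The 13741 genes kept held 99.7% of all counts. Standard errors come from the test statistic, and log2 CPM for correlations used a prior count of 2. CPM divides counts by the scaled library size. Lengths are merged exons of GENCODE M21. Scripts were tested on simulated data. The alternatives were DESeq2 1.42.0, limma 3.58.1, other scaling, no filter and leaving out libraries. The 10 genes and the lists were chosen with earlier results of these data known. Named genes were all 10, the 3 of smallest p in each pathway list, the 2 of smallest p and the 2 most abundant in each list of other cells, the 5 nearest to Reln, and Cyp19a1; some single genes are not reported here.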

Additional observations from a re-analysis of the deposited data

How the results depend on the processing

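In every setting none of the 10 genes was called (lowest adjusted p 0.601, for Calb2), and other scalings turned no direction among them. Over all genes, the number called was 0 by edgeR and by limma, 3 by DESeq2, 19 with no filter, 15 without vehicle 2 and BPA 2 (a choice made after seeing the data), and 0 to 1 when each library was left out. The 302 genes at an unadjusted p under 0.05 became 126 by DESeq2, 620 with no filter, 954 without vehicle 2 and BPA 2, and 194 to 708 when each library was left out, highest without vehicle 2. Of the 10 genes, 1 stood at that p, 3 did so without vehicle 2 and BPA 2 (Trp73, Calb2 and Ebf3), and 0 to 3 when each library was left out. The groups did not overlap for 2 of the 10, for 5 without vehicle 2 and BPA 2 (35.2% of all genes), and for 2 to 5 when each library was left out (12.2% to 19.7% of all genes). Of the pathway genes, 4 stood at that p, 1 by DESeq2, 2 with library size alone, 5 without vehicle 2 and BPA 2, and 1 to 3 when each library was left out. When each library was left out, log2 fold changes ran from -0.049 to 0.35 for Lhx5, -0.048 (without vehicle 2) and -0.034 (without BPA 3) to 0.22 for Vldlr, -0.52 to 0.095 for Calb2 and -0.023 to 0.088 for Dab1, turning direction in each. The causes were not tested. No paired analysis was possible because the labels give the groups no shared replicate numbers. The numbers 1 to 3 used here follow the order of the samples within each group and do not match libraries between groups. On the log2 scale the intervals of the 10 genes reach 0.20 to 0.57 to each side. They are not adjusted for the number of genes tested and hold no known spread between dams. A larger difference could also stay uncalled: Nkx2-1, with a log2 fold change of -1.25, had an adjusted p of 0.251 by edgeR.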
